A study of Mus musculus with 4 samples.

Results

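The genes described here encode the proteins that the liver secretes into blood: albumin, the apolipoproteins, fibrinogen and other clotting factors, protease inhibitors and complement, with the lipid transfer protein gene Mttp and the transcription factor gene Hnf4a added. A list of 39 gene symbols defined them, and all 39 were found among the 36464 Ensembl gene IDs of the deposited tables. They were measured in RNA of cells enriched for CD8+ T cells from tumours grafted through the skin of wild-type male C57BL/6 mice. The mice received either control IgG or an antibody against SIGLEC15, an immune checkpoint lectin, into the peritoneum over 2 weeks, and the tumours were taken on day 19. There were 6 mice per treatment, and each library was a mixture of 3 cell pellets, so that each treatment had 2 libraries, called IgG pools 1 and 2 and anti-SIGLEC15 pools 1 and 2 after the replicate numbers in the titles. The labels do not name the line of the grafted tumour and include no tumour cells without T cells. The question followed here is which of these genes moved with Alb, the albumin gene, from library to library and which did not.

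Hepatocytes and the tumours that derive from them build plasma proteins on the rough endoplasmic reticulum and release them. Their genes are switched on together by liver-enriched transcription factors, among them HNF4A, the FOXA factors and the C/EBP proteins. Liver tumour cells keep part of this program, and T cells are not known for it. Several of the proteins, such as complement C3 and haptoglobin, are also made by myeloid cells.

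Short stretches of DNA just before the transcription start are shown for 5 of the genes, because the genes share a program and yet differ in how closely they follow Alb in the results below. Each stretch covers the 250 bases before the start in RefSeq on GRCm38.p6 and reads 5′ to 3′ along the gene. Capitals mark every match to the motifs named below.
Alb (chr5:90460620-90460869, plus strand): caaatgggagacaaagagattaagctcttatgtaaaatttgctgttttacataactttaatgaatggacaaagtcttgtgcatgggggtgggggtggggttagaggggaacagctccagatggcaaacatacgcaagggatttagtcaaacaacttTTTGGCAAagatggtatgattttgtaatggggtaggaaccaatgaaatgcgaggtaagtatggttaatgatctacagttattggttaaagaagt
Rbp4 (chr19:38124812-38125061, minus strand): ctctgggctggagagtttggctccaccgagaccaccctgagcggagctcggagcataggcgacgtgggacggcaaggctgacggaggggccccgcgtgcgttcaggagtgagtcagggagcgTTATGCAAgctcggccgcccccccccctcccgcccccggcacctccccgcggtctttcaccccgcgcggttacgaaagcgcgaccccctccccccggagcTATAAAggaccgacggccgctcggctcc
Fgb (chr3:83049864-83050113, minus strand): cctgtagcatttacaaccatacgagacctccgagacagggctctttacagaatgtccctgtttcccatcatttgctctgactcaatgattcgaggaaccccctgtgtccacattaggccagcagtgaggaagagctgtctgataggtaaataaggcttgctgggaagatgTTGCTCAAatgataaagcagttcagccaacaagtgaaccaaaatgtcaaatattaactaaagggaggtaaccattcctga
Fga (chr3:83025903-83026152, plus strand): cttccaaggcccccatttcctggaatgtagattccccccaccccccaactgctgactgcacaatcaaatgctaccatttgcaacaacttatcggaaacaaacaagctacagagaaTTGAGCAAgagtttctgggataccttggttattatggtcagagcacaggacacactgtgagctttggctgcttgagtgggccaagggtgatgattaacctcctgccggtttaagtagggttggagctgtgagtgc
Apoa2 (chr1:171224804-171225053, plus strand): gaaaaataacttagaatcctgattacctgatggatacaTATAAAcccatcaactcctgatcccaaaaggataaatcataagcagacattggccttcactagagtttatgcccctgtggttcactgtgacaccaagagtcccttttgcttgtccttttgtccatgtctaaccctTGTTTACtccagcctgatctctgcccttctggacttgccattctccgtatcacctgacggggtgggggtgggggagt

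Motifs were searched on both strands in windows of 300 bases, which reach 50 bases past the start. A window was found for 29 of the 39 genes by symbol. The loose C/EBP pattern TTGCNNAA occurred in at least 1 window of 12 of the 29 genes and of 12.2% of all 27025 genes with a window. Alb, Rbp4, Fgb and Fga were among the 12, and so were Ahsg, Apob, C3, Cp, Hpx, Itih2, Serpinc1 and Apoa2, the last in a second window not shown. The palindromic form TTGCGCAA, a special case of the loose pattern, was in 0 of the 29 and 0.207% of all genes. The FOXA pattern TGTTTAC was found for Apoa2, Apoh, Fetub and Rbp4, for Rbp4 in a window not shown, and in 4.05% of all genes. The TATA box letters TATAAA were found for 9 of the 29 and 15.7% of all genes. The HNF4 direct repeat and the short HNF4 pattern CAAAGTCCA were in 0 of the 29, and in 0.0481% and 0.555% of all genes. A match describes the letters of the window only.

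Between 14854802 and 16026197 reads were counted in genes per library, as recovered from the deposited RPKM values (reads per kilobase of exon, scaled to the counted reads of each library). The 39 genes together took 1.81% of these reads in IgG pool 1, 0.38% in IgG pool 2, 0.801% in anti-SIGLEC15 pool 1 and 0.383% in anti-SIGLEC15 pool 2. A gene was tested if it reached 1 RPKM in at least 2 libraries, as 28 of the 39 and 12484 genes in all did. T cell markers were present in every library, and IgG pool 1 had the least of them. Mitochondrially encoded genes took 8.91% to 18.37% of the reads, with the most in anti-SIGLEC15 pool 2. The geometric mean of RPKM + 1, less 1, of 18 T cell genes was 48.1, 150.3, 133.0 and 141.0 in the order IgG pools 1 and 2, then anti-SIGLEC15 pools 1 and 2. Values given 4 at a time below keep this order. The liver secretory genes ran the other way, with 17.5, 6.23, 13.4 and 5.47. In bulk RNA such as this, fewer cells of a type and less RNA per cell cannot be told apart.

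Alb itself (ENSMUSG00000029368, chromosome 5, 90460897 to 90476602 on GRCm38) measured 2795, 556, 1089 and 625 RPKM. IgG pool 1 lay 5.02-fold above IgG pool 2, and anti-SIGLEC15 pool 1 lay 1.74-fold above its partner. The treatments overlapped, since the lowest and the highest value both came from IgG. To follow the other genes, each was divided by Alb within its library, as (RPKM + 1)/(Alb RPKM + 1), a ratio that does not depend on library scaling apart from the pseudocount of 1. The range of this ratio over the 4 libraries stayed within 2-fold for 14 of the 27 tested genes other than Alb. The same held for 7.47% of all 12483 other tested genes. A further 11 genes ranged over 2- to 4-fold, and 2 over more than 4-fold, where 73.8% of all tested genes lie. The median range was 0.97 on the log2 scale for the liver secretory genes and 2.44 for all tested genes. F2, at 1.96-fold, was the last gene inside the 2-fold limit and Serpind1, at 2.07-fold, the first outside it. Fga at 3.88-fold and Apoh at 4.62-fold stood on either side of the 4-fold limit.

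**Figure D1:**
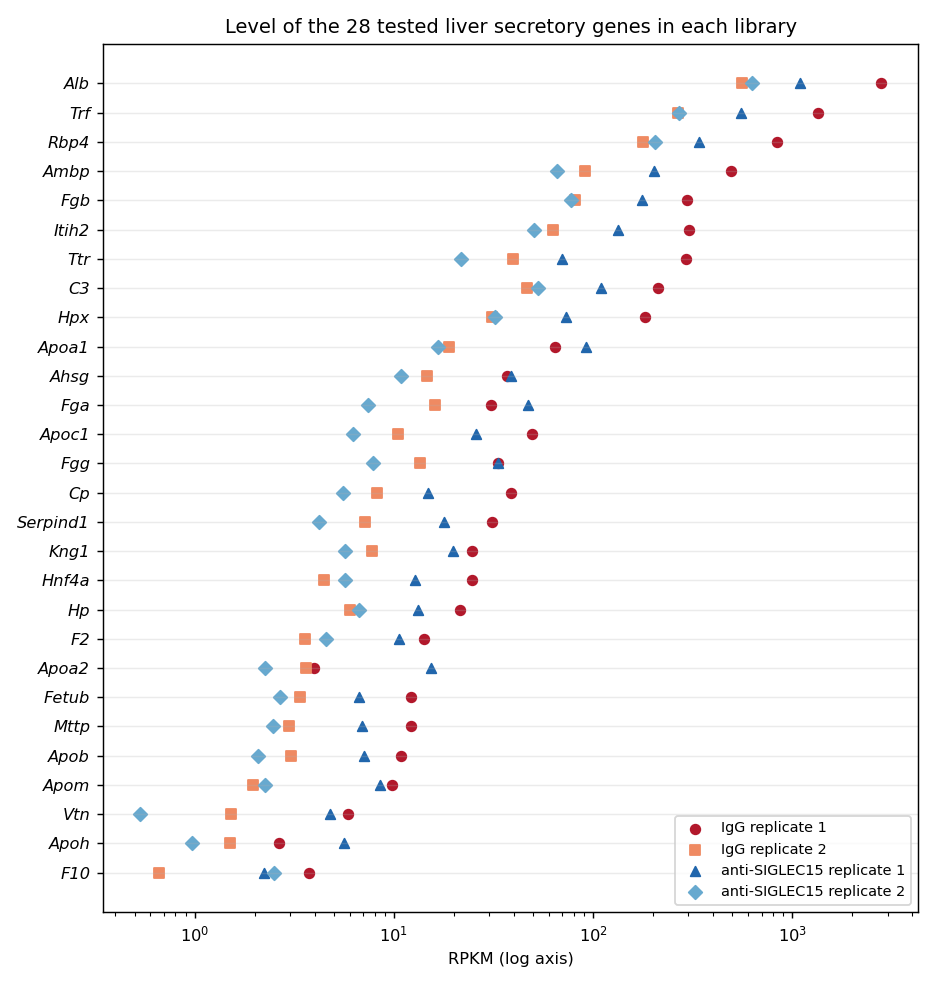
RPKM (log axis) of the 28 tested genes, with 1 point per library. IgG pool 1 (replicate 1) is the rightmost point for 23 genes and anti-SIGLEC15 pool 1 for 5: Apoa1, Ahsg, Fga, Apoa2 and Apoh.

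The library with the highest value separated only genes outside the 2-fold limit. IgG pool 1 was highest for 23 of the 28 tested genes, and for 34.0% of all tested genes. Anti-SIGLEC15 pool 1 was highest for the other 5, and for 32.1% of all tested genes. All 14 genes within 2-fold of Alb were highest in IgG pool 1. The 2-fold limit fixed this, because Alb in anti-SIGLEC15 pool 1, its next highest library, was 0.39 of its level in IgG pool 1. Of the genes outside that limit, IgG pool 1 was highest for 8 of 11 at 2- to 4-fold and 0 of 2 over 4-fold. The 5 exceptions were Apoa1, Apoa2, Apoh, Fga and Ahsg, and Ahsg passed to IgG pool 1 when libraries were scaled by median of ratios or by upper quartile. The full order of Alb, with IgG pool 1 first, then anti-SIGLEC15 pools 1 and 2, then IgG pool 2, was shared by 8 of 27 genes and by 9.21% of all tested genes. IgG pool 1 exceeded IgG pool 2 in 28 of 28 tested genes, with a median log2 difference of 1.79. Anti-SIGLEC15 pool 1 exceeded pool 2 in 27 of 28, with a median of 1.39. Over all tested genes these medians were -0.08 and 0.23.

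Among the carrier proteins, Rbp4 and Trf followed Alb most closely. Rbp4, which encodes the plasma carrier of retinol, measured 839.9, 178, 340.2 and 205 RPKM, and its ratio to Alb ranged over 1.09-fold. Trf encodes the iron carrier transferrin and measured 1342, 265, 549 and 269 RPKM, a range of 1.17-fold. Both genes were highest in IgG pool 1 and second in anti-SIGLEC15 pool 1, as Alb was, and the treatments overlapped in both. Ttr departed from them, although transthyretin binds the retinol carrier in blood. It measured 291, 39.7, 69.6 and 21.7 RPKM, with a ratio to Alb that ranged over 2.89-fold. IgG pool 1 was far above the other libraries, and anti-SIGLEC15 pool 2 was lowest. In reads per 10000 Alb reads, Ttr had 528 (95% exact binomial interval 514 to 542), 361 (335 to 389), 324 (306 to 342) and 176 (158 to 194). Rbp4 had 1723, 1834, 1791 and 1878 on the same scale. These intervals, and those below, cover counting error only. Both IgG values of Ttr lay above both anti-SIGLEC15 values here.

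The fetuin genes Ahsg and Fetub lie 18884 bases apart on chromosome 16. Fetub measured 12.2, 3.38, 6.69 and 2.68 RPKM and stayed within 1.66-fold of Alb. Ahsg, the more abundant of the pair, measured 37.1, 14.7, 38.5 and 10.8 RPKM. Pool 1 of both treatments was about level in Ahsg, while Alb differed between them, and the ratio ranged over 2.66-fold. Vtn, which encodes the adhesion protein vitronectin, was low at 5.87, 1.52, 4.8 and 0.531 RPKM.

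The apolipoprotein genes differed in how far they departed from Alb. Per Alb read, Apob, Apoc1, Apom, Apoa1, Apoa2 and Apoh were all highest in anti-SIGLEC15 pool 1. Apob, the structural protein of liver lipoproteins, measured 10.9, 3.05, 7.11 and 2.09 RPKM, within 1.75-fold of Alb. Mttp, which loads lipid onto apolipoprotein B, measured 12.2, 2.99, 6.91 and 2.47 RPKM, within 1.54-fold. Both transcripts were highest in IgG pool 1, as any gene within 2-fold of Alb has to be. Apoc1 measured 49.3, 10.5, 25.9 and 6.24 RPKM and Apom, carried on high-density lipoprotein, 9.79, 1.97, 8.49 and 2.26 RPKM. Their ratios to Alb ranged over 2.13-fold and 2.25-fold.

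Apoa1 and Apoa2, which encode the main proteins of high-density lipoprotein, were highest in anti-SIGLEC15 pool 1 in RPKM as well. Apoa1 measured 64.4, 18.8, 92.2 and 16.7 RPKM. Apoa2 measured 3.95, 3.60, 15.3 and 2.26 RPKM, so that 3 libraries were close together and anti-SIGLEC15 pool 1 stood 3.87-fold above IgG pool 1. Per 10000 Alb reads, Apoa2 had 3.24 (2.24 to 4.53), 14.8 (10 to 21.2), 32.2 (26.9 to 38.3) and 8.28 (4.90 to 13.1). On this scale IgG pool 1 was lowest, and its ratio of RPKM + 1 to Alb had the widest range of the 28 tested genes, 8.44-fold. Apoh, which encodes the phospholipid-binding beta-2-glycoprotein I, measured 2.66, 1.5, 5.60 and 0.971 RPKM and had 6.48, 18.3, 35 and 10.6 reads per 10000 Alb reads. Its order of libraries was that of Apoa2. Apoa1 has Apoc3 and Apoa4 as close neighbours on chromosome 9, with gaps of 2466 and 5059 bases along the cluster. These stayed near 0: Apoc3 had 8, 5, 16 and 2 reads and Apoa4 2, 0, 1 and 0.

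**Figure D2:**
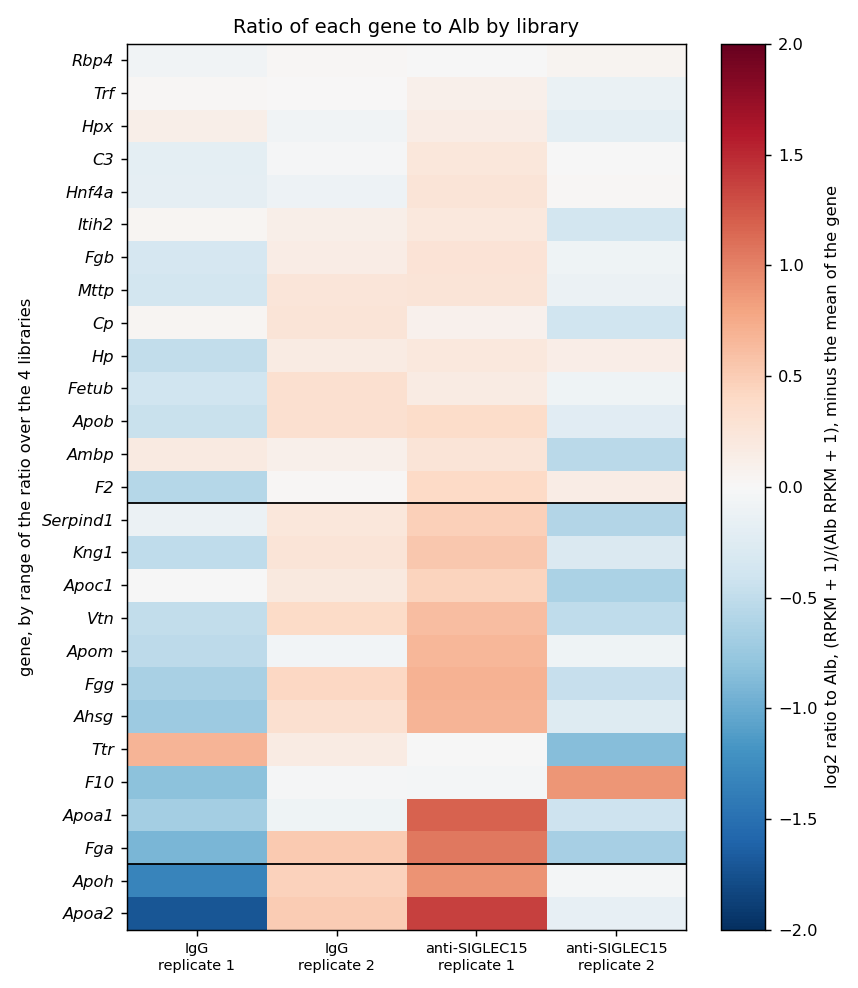
Log2 ratio of each tested gene to Alb in each library (columns), minus the mean of the gene over the 4 libraries; red is above and blue below that mean. Genes are ordered by the range of the ratio, and lines mark ranges of 2-fold and 4-fold. The 14 genes above the first line are pale, while Apoa2 at the bottom is blue in IgG pool 1 and red in anti-SIGLEC15 pool 1.

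The 3 fibrinogen genes form a cluster on chromosome 3, with 6513 bases between Fga and Fgb and 11026 between Fgg and Fga, and the chains they encode join in equal number in the protein. Their transcripts were not equal. Fgb measured 295, 81.0, 175 and 77.3 RPKM, Fga 30.8, 16.1, 47.1 and 7.45 RPKM, and Fgg 33.4, 13.5, 33.4 and 7.85 RPKM. Fgb followed Alb within 1.53-fold, while Fgg ranged over 2.56-fold and Fga over 3.88-fold. Per 10000 Alb reads, Fga had 142 (134 to 149), 371 (344 to 399), 556 (532 to 579.8) and 153 (137 to 171). Fgg had 107, 216, 274 and 112 on that scale. Fgb had 1718, 2369, 2617 and 2011. All 3 genes were thus lower relative to Alb in IgG pool 1 and anti-SIGLEC15 pool 2 than in the other pools. They differed in how wide that range was. The same pools were the lower ones for Apob, Mttp, Kng1 and Ahsg, among others. The loose C/EBP letters stand in the shown stretches of both Fgb and Fga.

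**Figure D3:**
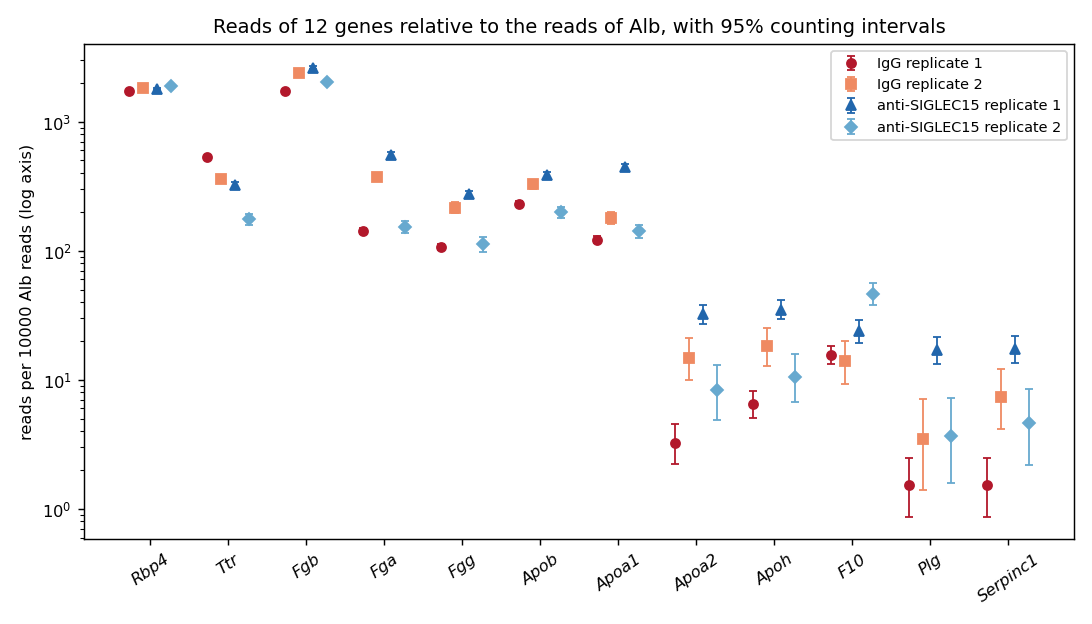
Reads of 12 genes per 10000 reads of Alb in the same library (log axis), with 95% exact binomial intervals. Rbp4 is level over the 4 libraries, and Ttr is lowest in anti-SIGLEC15 pool 2. Fgb, Fga, Fgg, Apob, Apoa1, Apoa2, Apoh, Plg and Serpinc1 are highest in anti-SIGLEC15 pool 1.

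Of the clotting factors, F2, the prothrombin gene, measured 14.2, 3.58, 10.6 and 4.57 RPKM. Kng1, the source of bradykinin, measured 24.6, 7.76, 19.9 and 5.70 RPKM, and Serpind1, the thrombin inhibitor heparin cofactor II, 31.0, 7.12, 17.8 and 4.21 RPKM. Mouse Kng1 has a close copy, Kng2, with which it can share reads. All 3 were highest in IgG pool 1 and lay near the 2-fold limit. F10, the gene of coagulation factor X, did not keep this pattern: it measured 3.75, 0.661, 2.22 and 2.49 RPKM and was the single tested gene with pool 2 above pool 1 in the anti-SIGLEC15 libraries. Per 10000 Alb reads it had 15.6 (13.3 to 18.2), 13.9 (9.20 to 20.0), 23.7 (19.2 to 29.0) and 46.4 (37.8 to 56.5). Anti-SIGLEC15 pool 2 was also above its partner in the summed level of 16 neutrophil genes, at 1039, 156, 288 and 481 RPKM, with S100a9 at 579, 46.7, 149 and 245 RPKM, and IgG pool 1 was highest in both. Of the neutrophil genes, Lcn2, Ngp and Ltf were instead lower in anti-SIGLEC15 pool 2 than in pool 1. Genes of macrophages and monocytes were mixed. The monocyte gene Cd14 measured 65.0, 8.90, 22.0 and 39.3 RPKM. Cd68, Cx3cr1 and Lyz2 were also higher in anti-SIGLEC15 pool 2 than in its partner. Apoe (545 RPKM in anti-SIGLEC15 pool 1 and 236 in pool 2) and Spp1 (42.3 and 19.9) were lower. So was the summed level of the macrophage and monocyte list (647 and 345). The macrophage gene Adgre1 had 8, 4, 4 and 3 reads, and Csf1r stayed under 1 RPKM. The part of these cells in the level of F10 was not tested.

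Other clotting and transport genes were too low to be tested. Plg, the plasminogen gene, had 16, 7, 68 and 8 reads, and Serpinc1, the antithrombin gene, 16, 15, 69 and 10. Serpina6, which encodes the plasma carrier of corticosteroids, had 10, 1, 32 and 1 reads, and F5 48, 9, 44 and 11. For Plg, Serpinc1 and Serpina6 the most reads came from anti-SIGLEC15 pool 1, although Alb had fewer reads there than in IgG pool 1. Per 10000 Alb reads, Plg had 1.53 (0.872 to 2.48) in IgG pool 1 and 17.0 (13.2 to 21.5) in anti-SIGLEC15 pool 1. Serpinc1 had 1.53 (0.872 to 2.48) and 17.2 (13.4 to 21.8), and Serpina6 0.953 (0.457 to 1.75) and 7.99 (5.46 to 11.3).

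Itih2 and Ambp encode partners of 1 complex, since Ambp gives rise to bikunin, the light chain that the inter-alpha-inhibitor heavy chains carry. Itih2 measured 304, 62.7, 133 and 50.2 RPKM and Ambp 494, 91.4, 203 and 65.9 RPKM. Both followed Alb, within 1.5-fold and 1.75-fold. The other heavy chain genes, Itih1, Itih3 and Itih4, lie side by side on chromosome 14 and were close to 0. Itih1 had 12, 3, 10 and 6 reads, Itih3 5, 3, 41 and 4, and Itih4 8, 4, 35 and 0. A count of 0 allows up to 3 reads. Itih3 and Itih4 again had most of their reads in anti-SIGLEC15 pool 1, with 10.2 (7.35 to 13.9) and 8.74 (6.09 to 12.2) per 10000 Alb reads.

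The haem and metal binding proteins stayed with Alb. Hpx, the haem scavenger hemopexin, measured 183, 31.2, 72.8 and 32.2 RPKM and ranged over 1.27-fold. Cp, the copper-carrying ferroxidase, measured 38.7, 8.22, 14.9 and 5.56 RPKM, and Hp, the haemoglobin scavenger haptoglobin, 21.4, 6.02, 13.2 and 6.71 RPKM. They ranged over 1.58-fold and 1.63-fold. In complement, C3, the central component, measured 212, 46.5, 109 and 53.0 RPKM and stayed within 1.33-fold. Cfb, its partner in the alternative pathway, had 4, 3, 2 and 3 reads, so that its change could not be read at this depth. Serping1, the C1 inhibitor gene, had 124, 23, 27 and 23 reads.

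Hnf4a, the only transcription factor of the list, measured 24.7, 4.46, 12.7 and 5.67 RPKM and kept within 1.36-fold of Alb. It is not secreted, and moved with the secreted genes nearest to Alb. In a list of 21 further liver transcription factors, 14 were tested and 12 of them stayed within 2-fold of Alb, with Cebpb (411, 56.6, 123 and 87.5 RPKM), Cebpa (41.5, 6.19, 22.9 and 10.2 RPKM) and Tbx3 as the most abundant. Foxa1, Foxa2 and Foxa3 were also among the 12, chosen for naming after their values were seen. Foxa1 measured 5.95, 0.678, 3.03 and 0.911 RPKM, and the pseudocount of 1 narrows the range of genes this low. The list counts in this paragraph are given with that pseudocount only. Of 65 other measured genes of liver secreted proteins, 25 were tested and 10 stayed within 2-fold, among them the 3 most abundant: Igfbp1, which binds insulin-like growth factors (3322, 629, 1246 and 651 RPKM), Apoe, and Afp, the fetal counterpart and chromosomal neighbour of Alb. Afp had 5398, 5419, 6357 and 4979.8 reads per 10000 Alb reads. Of these 65 genes, 35 never reached 1 RPKM. Of 45 genes of hepatocyte metabolism, 17 were tested and 8 stayed within 2-fold, with Ugt2b34 (43.7, 8.64, 14.7 and 7.63 RPKM) and the tyrosine aminotransferase gene Tat (38.5, 7.88, 16.2 and 7.28 RPKM) as the most abundant, while Cyp1a2 (43.6, 5.41, 8.80 and 1.14 RPKM) did not. Among these 45, 26 never reached 1 RPKM, and the urea cycle gene Otc had 0 reads in every library, which allows up to 3 reads each.

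**Figure D4:**
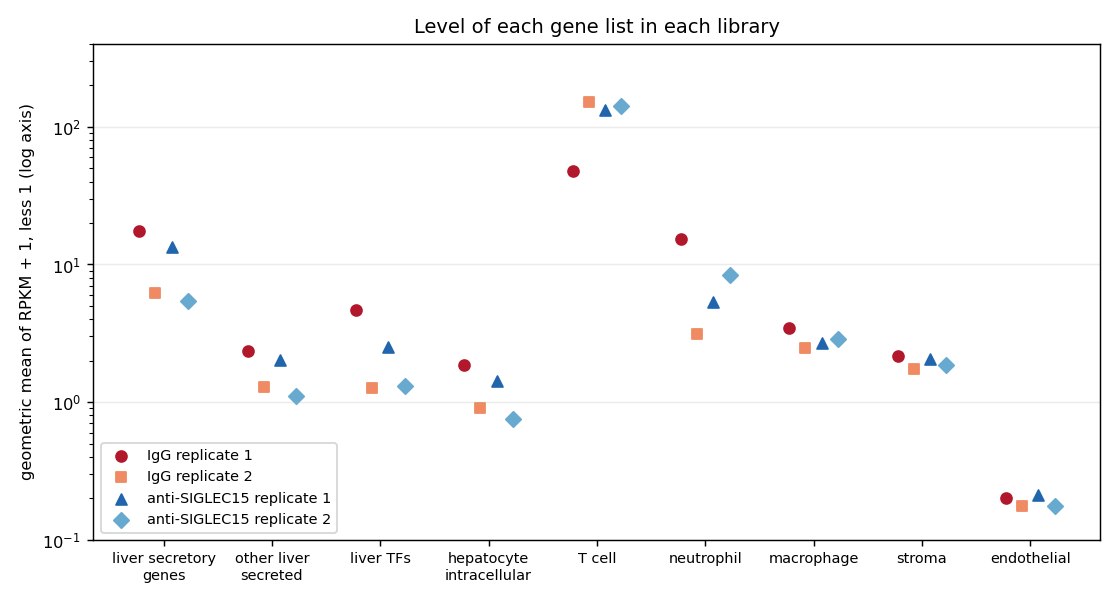
Geometric mean of RPKM + 1, less 1 (log axis), of each gene list in each library. The liver secretory genes run from 17.5 in IgG pool 1 to 5.47 in anti-SIGLEC15 pool 2, and the T cell genes have their lowest point in IgG pool 1.

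Genes of other cell types did not keep to Alb in this way. Of the tested T cell genes, 18 of 18 ranged over more than 4-fold in their ratio to Alb, as did 73.8% of all tested genes. Among 13 tested neutrophil genes 2 stayed within 2-fold, and among 9 of macrophages and monocytes 1, which was Apoe. Among genes for lipoprotein assembly, Pdia3 and P4hb, general folding enzymes of the endoplasmic reticulum, ranged over more than 2-fold. The stromal gene Fn1 followed Alb (387, 90.5, 191 and 68.2 RPKM), but Col1a1, which marks fibroblasts, stayed at or below 0.585 RPKM. Dcn, a tested gene of the same stromal list, measured 2.15, 0.53, 1.51 and 0.899 RPKM, with a range of 1.43 on the log2 scale. Endothelial markers were low, with 11 of 12 never at 1 RPKM. Red cell genes were lower in both anti-SIGLEC15 libraries in 5 of 5 tested, against 6.02% of all tested genes. Their median log2 fold change was -4.42, and 0 passed the test. Over all tested protein-coding genes with a mean of at least 5 RPKM, 5982 in number, the 5 with the smallest range were C1ra, Ecscr, Laptm4b, Idh1 and C130074G19Rik. C1ra, a protease of the classical complement pathway that shares reads with its copy C1rb, measured 28.2, 4.82, 10.6 and 5.62 RPKM, a range of 0.034 on the log2 scale. The others ranged over 0.065, 0.103, 0.119 and 0.122.

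Relative to Alb, most of the genes leaned the same way. The ratios share the Alb reads of each library, so they are not independent of one another. Of the 29 genes other than Alb with at least 10 reads in every library, 24 had their highest count per Alb read in anti-SIGLEC15 pool 1. The same was true of 4.74% of all 13204 genes with that many reads, of which 76.8% were instead highest in IgG pool 2, where Alb was lowest. Among the 907 of them that stayed within 2-fold of Alb the share was 32.5%. The transcription factors had 8 of 14 there, the other secreted proteins 12 of 27, the hepatocyte metabolism genes 7 of 18 and the lipoprotein assembly genes 2 of 12. Only Ttr and Serping1 were highest in IgG pool 1 and Cp in IgG pool 2, with Rbp4 and F10 in anti-SIGLEC15 pool 2. On recovered reads without a pseudocount, 15 of the 29 stayed within 2-fold and 4 exceeded 4-fold: Apoa2, Apoh, Vtn and Serpinc1.

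The comparison of treatments asks whether these transcripts differ after SIGLEC15 blockade, and none of the genes passed it. Limma on log2(RPKM + 1), fitted over all 12484 genes with Benjamini-Hochberg adjustment, called 0 of the 28 tested genes and 0.00% of all tested genes. At an unadjusted p under 0.05 it was 0 of 28, and 1.17% of all tested genes. Limma-voom on recovered reads called 0 of 34. Both anti-SIGLEC15 libraries lay above both IgG libraries for 0 of 28 genes, against 12.1% of all tested genes, and below for 0 of 28, against 6.02%. With 2 libraries per treatment, an exact two-sided permutation test cannot go below 0.333. The median log2 fold change, anti-SIGLEC15 minus IgG, was -0.44 over the 28 genes and 0.02 over all tested genes.

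The log2 fold change was -0.60 (SE 0.81) for Alb, whose mean was 1676 ± 1583 RPKM in IgG and 857 ± 328 RPKM in anti-SIGLEC15 (SD, n = 2). It was -0.55 (SE 0.78) for Rbp4, -0.31 (SE 0.82) for Hnf4a and 0.25 (SE 0.56) for F10. The lowest and highest of the 28 were Ttr at -1.45 (SE 1.07) and Apoa2 at 0.61 (SE 0.78), and Apoa1 had 0.18 (SE 0.97). The adjusted p of each in limma was 1. Each of these differences was under 1.5 times its SE. In Ttr the sign held with each library left out in turn, but the difference was only -0.02 without IgG pool 1. In the other 6 the sign turned with at least 1 library left out. Without IgG pool 2, 17 of 28 genes passed as lower, where 10.1% of all tested genes did, and Alb had -1.76. Without IgG pool 1, 0 passed, the median was 0.49, and 10 of 28 lay above IgG pool 2 in both anti-SIGLEC15 pools, as did 25.5% of all tested genes, and 0 lay below it in both, against 26.8%. Without IgG pool 2, 0 lay higher, against 44.8%, and 23 lower, against 37.1%. Without anti-SIGLEC15 pool 1, 18 of 28 lay lower, against 37.7% of all tested genes, and 0 higher, against 19.4%, with a median of -1.06. Without anti-SIGLEC15 pool 2, 5 of 28 lay higher, against 36.8%, and 0 lower, against 8.35%, with a median of 0.19.

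As a ratio to Alb, 4 of the 27 genes separated the treatments. For C3, F2 and Hnf4a the lower anti-SIGLEC15 ratio exceeded the higher IgG ratio, as it did for 1.78% of all tested genes. Ttr had the reverse, as had 0.561%. For C3 the counts per 10000 Alb reads were 1663, 1836, 2206 and 1862, and for Hnf4a 182 (174 to 191), 165 (148 to 184), 240.0 (225 to 256) and 187 (169 to 206). The gap between the treatments was small in both genes next to the difference between the anti-SIGLEC15 pools. With a pseudocount of 0.1 the counts were 5 higher (3.44% of all tested genes) and 2 lower (1.19%). Without anti-SIGLEC15 pool 2 they were 22 higher (2.74%) and 1 lower (1.24%), and without anti-SIGLEC15 pool 1 they were 5 (15.6%) and 9 (1.57%). Without IgG pool 2 they were 18 (97.3%) and 1 (0.902%), and without IgG pool 1 they were 3 (2.22%) and 3 (82.9%).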

How the data were processed

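RNA caught on oligo beads was read on a DNBSEQ-G50, per the labels' protocols. The authors deposited 1 value per gene and library, read here as RPKM: value times GENCODE M21 exon length gave whole reads (tolerance 0.02) for 98.92% to 98.97% of genes under 1000 reads. The submitters' processing notes name GRCm38 and mm10; the aligner, counter and strand setting: not given in the sources used here. Symbols matched 36346 IDs.

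Limma 3.58.1 (R 4.3.3; intensity trend, robust) was run on log2(RPKM + 1), a scale that shrinks differences of low genes, without a replicate block. Python 3.11.15 and scipy 1.17.1 gave ratios and exact binomial intervals. The test and the ratio rule were tried on simulated reads, the ratio rule with counting noise only. That trial does not show how they perform on these pools. Members, gene lists and motifs were chosen with earlier results of these data known. Named are all members, with values for each library at a mean of at least 5 RPKM or over 4-fold from Alb, and low members by reads. Other named genes are Afp, the most abundant of each list and the 5 nearest to Alb; further examples were chosen after their values were seen. Whether pools shared cages or days is not stated, so an SD or p measures the spread between pools. Some results of the lists and motifs are not reported here.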

Additional observations from a re-analysis of the deposited data

How the results depend on the processing

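No gene passed the test with libraries scaled by median of ratios or upper quartile, a pseudocount of 0.1, limma-voom, the filter raised to 5 RPKM or the filter dropped. With the replicate number as a block, 0 of 28 passed too, with 4 at an unadjusted p under 0.05. The numbers do not pair the libraries by the labels. The differences between replicates 1 and 2 of both treatments correlated at 0.33 over 12484 genes. Leaving out 1 library gave between 0 and 17 calls. Genes that did not overlap ran from 0 to 10 higher and from 0 to 23 lower, and the median from -1.32 to 0.49. The log2 fold change then ran from -1.76 to 0.57 for Alb, -1.67 to 0.57 for Rbp4, -2.87 to -0.02 for Ttr, -1.02 to 1.37 for Apoa1, -0.55 to 1.77 for Apoa2, -0.50 to 1.01 for F10 and -1.43 to 0.81 for Hnf4a. The lone library of a treatment was assumed to vary like the other treatment, and the cause was not tested. For Hnf4a the sign also turned without anti-SIGLEC15 replicate 2 (0.21), for Apoa1 without anti-SIGLEC15 replicate 1 (-1.02) and without IgG replicate 2 (-0.69).

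The count within 2-fold of Alb was 5 at a limit of 1.5-fold and 25 at 4-fold, as the limits themselves imply. It was 20 of 28 against Afp, 21 of 27 against Apob, and from 14 to 20 with 1 library left out. Fewer libraries cannot widen a range, so leaving 1 out could only keep or raise this count. Ratios that separated the treatments, a comparison chosen after the data were seen, numbered 5 higher and 2 lower with a pseudocount of 0.1. They ran from 3 to 22 higher and from 1 to 9 lower with 1 library left out. Genes under about 10 reads carry too few counts for a ratio.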
